A study of Homo sapiens with 6 samples.

Results

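Translation initiation factors are the proteins that bring the small ribosomal subunit, the initiator tRNA and an mRNA together and then let the large subunit join. Their genes were followed in H69AR, a human cell line of small cell lung cancer that was made from NCI-H69 by selection with doxorubicin. They were taken as the protein-coding genes whose symbol starts with EIF and a digit from 1 to 6, leaving out EIF4A1, EIF4A2 and EIF4A3, which gave 53 genes of 60605 identifiers in the count table. RNA sequencing counts were compared between 3 libraries of cells given 70 nM Supinoxin and 3 libraries of untreated cells. The drug, Supinoxin, is a small molecule known for its binding to the RNA helicase DDX5. Both groups are the same line without an engineered change and were grown with 20% serum. The sources used here give neither the duration of treatment nor a vehicle. Whether the libraries of a group came from separate cultures is not stated, and the tests therefore rest on a spread that may be technical.

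Initiation runs in steps that give the factors their numbers. eIF2 carries the initiator tRNA in a GTP-bound state, eIF2B recharges it with GTP, and 4 kinases (EIF2AK1 to EIF2AK4) block that recharging by phosphorylating eIF2 under different stresses. eIF1, eIF1A, eIF3 and eIF5 act on the small subunit during scanning and start-codon choice, the eIF4 proteins bind the mRNA cap and are held back by the 4E-BP inhibitors, eIF5B joins the subunits, eIF5A assists elongation at difficult peptide bonds, and eIF6 keeps free large subunits from joining too early. Many mRNAs of the translation machinery, several eIF3 subunits among them, begin with a C followed by a run of pyrimidines, the TOP motif, through which the mTORC1 kinase and LARP1 control their translation and stability.

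The starts of the mRNAs are shown first, because this motif is a known sequence feature of some of these genes. Of the 53 genes, 44 were matched by symbol to the RefSeq promoter table (GRCh38.p14), and 9 of these have a C at the annotated start followed by at least 4 further pyrimidines, a C-led run of at least 5 bases. Such a run was found on the gene's strand in 20.5% of the 44 and in 6.32% of all 15345 protein-coding symbols of the table. Not matched were EIF2AK1, EIF2S2, EIF3A, EIF3CL, EIF3E, EIF3G, EIF3H, EIF3L and EIF4EBP1. The tallies of runs therefore leave out several tested eIF3 genes and EIF4EBP1. Each window below gives 10 bases before and 20 bases from the annotated start on, 5′ to 3′, with the C-led run in capitals. Members whose RNA fell with Supinoxin and that carry a run are EIF3K at chr19:38619178-38619207 (plus strand), EIF3D at chr22:36529147-36529176 (minus), EIF3M at chr11:32583821-32583850 (plus), EIF3F at chr11:7987327-7987356 (plus) and EIF2D at chr1:206612446-206612475 (minus).
EIF3K: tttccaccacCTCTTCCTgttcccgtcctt
EIF3D: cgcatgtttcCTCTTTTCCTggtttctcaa
EIF3M: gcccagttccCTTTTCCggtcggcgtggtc
EIF3F: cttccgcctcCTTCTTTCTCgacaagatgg
EIF2D: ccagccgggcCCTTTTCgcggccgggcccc

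EIF2S3, its copy EIF2S3B and EIF4B carry a run and did not pass the test, and EIF2A carries one but was untested. The windows of EIF2S3B and EIF2A are not shown. EIF2S3 lies at chrX:24054946-24054975 (plus) and EIF4B at chr12:53006446-53006475 (plus).
EIF2S3: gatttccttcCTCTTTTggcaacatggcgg
EIF4B: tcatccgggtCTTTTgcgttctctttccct

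The next windows have no such run, and the annotated first base alone is in capitals. EIF3I at chr1:32222397-32222426 (plus) and EIF6 at chr20:35284753-35284782 (minus) fell, while EIF4G2 at chr11:10808907-10808936 (minus) and EIF4G3 at chr1:21176878-21176907 (minus) rose.
EIF3I: ttccggtcttActcacgttgcggccttcct
EIF6: ctttttagggAgtccaaggtacagtcgccg
EIF4G2: acgccttagcGccagcagtgagtcggagct
EIF4G3: ttttccgagcAgccgtcctgccggactgct

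Among the 8 members with a run that could be tested, 5 fell and 0 rose (median log2 fold change -0.44). Of the 29 tested members in the table without a run, 13 fell and 6 rose (median -0.24). Over all tested protein-coding genes, 33.9% of 737 with a run fell and 20.2% rose (median -0.13). Of 9290 without one, 26.1% fell and 25.1% rose (median 0.0027). Leaving out the genes of cytosolic ribosomal proteins, 30.1% of 694 with a run fell and 21.3% rose, with a median of -0.08. EIF3F and EIF2D lost their calls in some of the other ways of processing the counts. A run at an annotated start is a description of these letters and not a measured transcription start.

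Total counts ran from 30136963 to 39402804 per library, and the 53 genes took 0.860% to 0.924% of them. Levels are given as CPM, the count scaled to library size with TMM factors, in which 1 CPM stands for 30.7 to 38.2 counts. Untreated replicate 1 stood apart from the other untreated libraries, at 79.6 on the first principal component (75.4% of the variance) against 45.4 and 44.4, with the Supinoxin libraries between -58.8 and -54.5. Of the epithelial markers KRT8 (126 to 225 CPM untreated) and KRT18 were measured, while CDH1 and KRT19 were below 0.2 CPM in every library and EPCAM fell from 10.3 to 1.22 CPM. The 4 neuroendocrine markers that could be tested (INSM1, CHGA, SYP and NCAM1) summed to 18.7 to 20.1 CPM with Supinoxin and 27.4 to 33.1 CPM without, INSM1 and NCAM1 fell (log2 fold changes -0.72 and -1.53), and NEUROD1 is listed at 0. Of the 5 non-neuroendocrine or resistance markers YAP1, REST, MYC and the drug exporter ABCC1 rose (1.14, 0.79, 0.92 and 1.57) and VIM did not pass (0.08). The part of these marker changes in the results was not tested. Leukocyte markers summed to 1.32 to 1.59 CPM with Supinoxin and up to 2.22 CPM without. Of the stromal and endothelial markers, DCN, PECAM1 and VWF stayed below 0.5 CPM and COL1A1 was at 1924 to 2944 CPM untreated and 4685 to 5564 CPM with Supinoxin; its part in the results was not tested.

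Of the 53 genes, 45 had enough counts to be tested. Adjusted p-values below come from edgeR's quasi-likelihood test over all 15947 genes tested, with a threshold of 0.05. With Supinoxin 23 members fell, 51.1% of those tested, where 25.2% of all tested genes fell. Another 6 rose, 13.3%, where 23.4% of all tested genes rose, and 16 did not pass. The median log2 fold change of the members was -0.35, and that of all tested genes -0.00044. CPM values of the groups did not overlap for 35 members, 77.8%, as for 62.4% of all tested genes. Leaving out untreated replicate 1, 27 members were lower and 7 higher, beside 27.4% and 26.5% of 16348 genes. The 8 untested genes were EIF1AY, EIF2A, EIF3C, EIF3CL, EIF4E3, EIF4EBP3 and EIF4ENIF1, which are listed at 0 in every library, and EIF4E1B with a few counts. For EIF3C, which encodes a core eIF3 subunit that dividing cells use, being listed at 0 is no sign of absence. Why these genes are listed at 0 was not tested, and 19.3% of protein-coding genes are listed at 0.

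**Figure D1:**
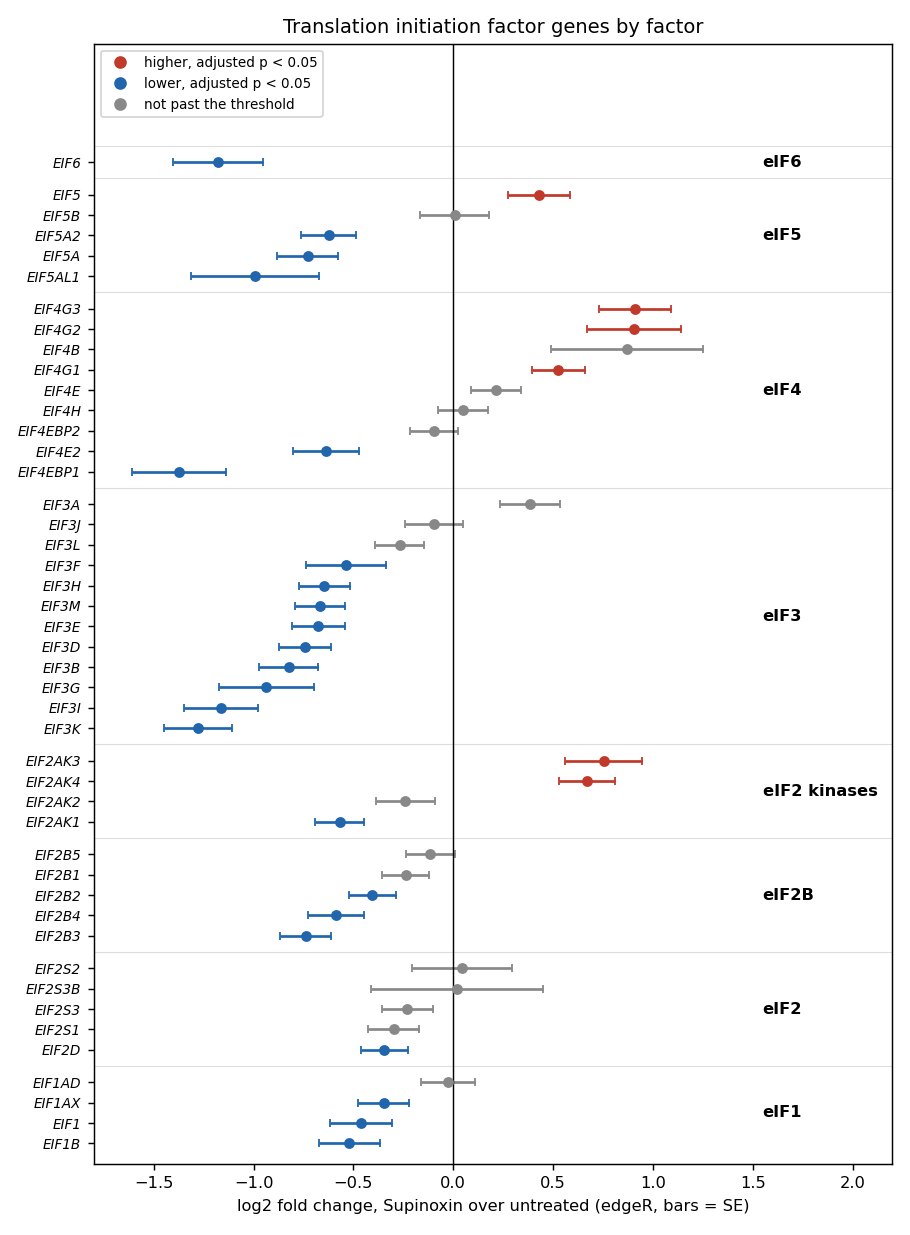
Log2 fold change (Supinoxin over untreated, edgeR) of the 45 tested members on the x axis, by factor on the y axis, with bars for the standard error and colour for the call at an adjusted p of 0.05. Within eIF3, 9 of 12 points lie left of 0 and passed, and the 3 EIF4G genes lie right of 0 and passed.

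eIF3, the large scaffold that binds the small subunit, had the most calls and also the most tested genes. Of its 12 tested subunit genes 9 fell and 0 rose (median log2 fold change -0.67), where 25.2% of all tested genes fell and 23.4% rose. In the eIF1 group the share that fell was the same, 3 of 4. Summed over the 12 genes, eIF3 stood at 2129, 2204 and 2199 CPM in the Supinoxin libraries and at 3850, 3092 and 3267 CPM in the untreated ones. The groups did not overlap in this sum, and the highest value was that of untreated replicate 1.

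Within the octamer, the structural core of eIF3, 5 of 7 tested genes fell, with a median of -0.65, beside 25.2% of all tested genes. EIF3K, a small peripheral member of the octamer, was at 88.7, 99.3 and 97.4 CPM with Supinoxin and at 291, 196 and 206 CPM untreated. Every treated library was below every untreated one, a 2.43-fold lower level (log2 fold change -1.28, SE 0.17, adjusted p = 0.000571). EIF3E, EIF3H and EIF3M fell by 0.68, 0.65 and 0.67 on the log2 scale. EIF3F, which carries an MPN domain, fell by 0.54 with an adjusted p of 0.04999, and in untreated replicate 1 it was at 205 CPM against 120 and 134 in the other two. Without that library its log2 fold change was -0.26, and the call was lost in 6 of the 13 other ways of processing the counts.

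The largest subunit did not follow. EIF3A, which anchors the octamer and the b-g-i module, was at 409, 402 and 398 CPM with Supinoxin and at 248, 340 and 339 CPM untreated. These groups did not overlap, with the treated libraries higher, and the log2 fold change of 0.38 (SE 0.15) did not pass (adjusted p = 0.0606). It passed without untreated replicate 1 (0.25, adjusted p = 0.0120) and was -0.01 once trends with transcript length and GC content were removed. EIF3L had a log2 fold change of -0.27 (adjusted p = 0.0954), and 41.1% of its exonic bases also belong to another gene of the same strand. It passed without untreated replicate 1 (-0.32, adjusted p = 0.00534) and with length and GC trends removed (-0.27, adjusted p = 0.0188).

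All 3 genes of the b-g-i module, which sits near the mRNA entry channel, fell, with a median of -0.94. Of all tested genes 25.2% fell. EIF3I, a WD40-repeat subunit, was at 180, 186 and 182 CPM with Supinoxin and at 533, 320 and 376 CPM untreated. The groups were well apart, a 2.24-fold lower level (log2 fold change -1.16, SE 0.19, adjusted p = 0.00127). EIF3G, an RNA-binding subunit, was at 174, 184 and 179 CPM with Supinoxin and at 498, 255 and 273 CPM untreated. Its untreated values are led by replicate 1, and the log2 fold change of -0.94 (SE 0.24, adjusted p = 0.0107) was -0.55 without it (adjusted p = 0.00018). EIF3B, the scaffold of the module, was at 366, 380 and 381 CPM with Supinoxin and at 798, 603 and 595 CPM untreated. It was 1.77-fold lower (log2 fold change -0.82, SE 0.15, adjusted p = 0.00205), with no overlap.

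Of the remaining subunits, EIF3D, which can bind the cap of some mRNAs itself, fell by 0.74 on the log2 scale. EIF3J, a loosely bound subunit that acts at the decoding site, had a log2 fold change of -0.10 (adjusted p = 0.603) and overlapping groups.

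**Figure D2:**
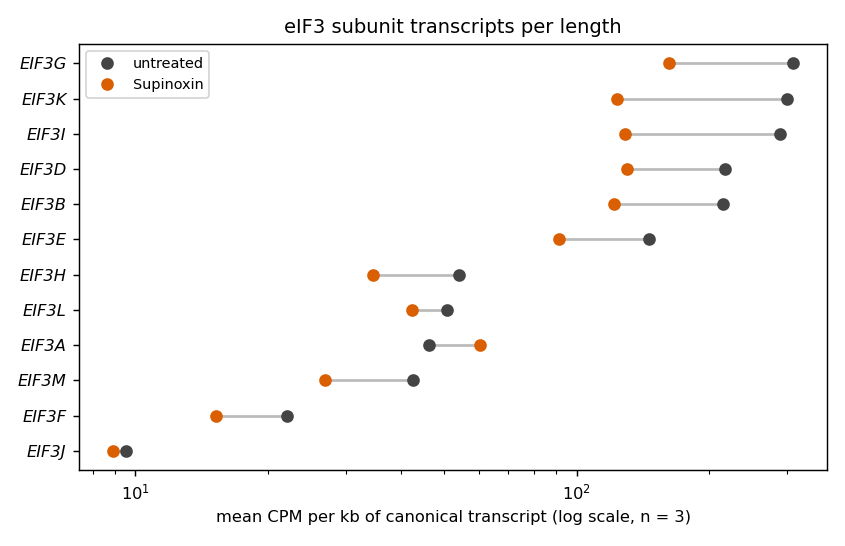
CPM per kilobase of the canonical transcript for the eIF3 subunit genes in each group, so that levels can be set side by side between genes. EIF3G, EIF3K and EIF3I, the 3 highest untreated at 310, 299 and 288 CPM per kilobase, stand at 162, 123 and 129 with Supinoxin.

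On the per-length scale the subunit levels were closer together with Supinoxin. Untreated means ran from 9.52 CPM per kilobase for EIF3J to 310 for EIF3G, and treated means from 8.90 for EIF3J to 162 for EIF3G. EIF3A, at 46.4 CPM per kilobase untreated and 60.5 with Supinoxin, was below EIF3B and EIF3G in both groups. The canonical transcript is one annotated isoform, and its length sets these values: EIF3F, at 15.2 with Supinoxin and 22.1 untreated, has a long one of 6920 bases. The highest subunits untreated, EIF3G, EIF3K and EIF3I, have short ones of 1103, 772 and 1421 bases. With Supinoxin EIF3D, at 130 CPM per kilobase, was above EIF3I and EIF3K, at 129 and 123. The untreated mean of EIF3G is led by replicate 1 (498 CPM against 255 and 273). Over all protein-coding genes the median log2 fold change was -0.59 in the shortest of 5 length bins and 0.48 in the longest. The part of this length trend in the closer levels was not tested.

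eIF6, which binds the large ribosomal subunit, is encoded by a single gene. EIF6 was at 95.3, 103 and 100.4 CPM with Supinoxin and at 319, 185 and 172 CPM untreated. It was 2.26-fold lower (log2 fold change -1.18, SE 0.22, adjusted p = 0.00274), with no overlap. Untreated replicate 1 was the highest library, and without it the log2 fold change was -0.83. A neighbour on the same strand covers 17.4% of its exonic bases. Of the proteins that evict eIF6, SBDS had a log2 fold change of -0.33 (adjusted p = 0.0454) and EFL1, the GTPase, one of -0.24 (adjusted p = 0.259). The SBDS call was lost in 9 of these 13.

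The eIF4 group handles the mRNA cap. Of its 9 tested genes 3 rose and 2 fell, counts near the shares of all tested genes (23.4% and 25.2%), with a median log2 fold change of 0.22, and their sum stood at 3336, 3429 and 3485 CPM with Supinoxin against 2902, 2969 and 2612 untreated. The scaffold genes rose and the inhibitor EIF4EBP1 fell.

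EIF4G1, the main scaffold between the cap-binding protein and eIF3, was at 1352, 1448 and 1476 CPM with Supinoxin and at 992, 1091 and 885 CPM untreated, a log2 fold change of 0.53 (adjusted p = 0.00911). Without Supinoxin replicate 3 its adjusted p was 0.0533. EIF4G3, a second scaffold, was at 286, 281 and 301 CPM with Supinoxin and at 112, 170 and 179 CPM untreated. It was 1.88-fold higher with no overlap (log2 fold change 0.91, SE 0.18, adjusted p = 0.00324). EIF4G2, also called DAP5, lacks the site for the cap-binding protein and serves cap-independent initiation. It was at 429, 426 and 444 CPM with Supinoxin and at 144, 305 and 246 CPM untreated, 1.87-fold higher (log2 fold change 0.90, SE 0.24, adjusted p = 0.0118), and untreated replicate 1 was the lowest library. Without that library EIF4G2 was at 0.66 and EIF4G3 at 0.74 on the log2 scale.

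EIF4EBP1, the best-known 4E-BP and an mTORC1 target, was at 102, 108 and 102 CPM with Supinoxin and at 389, 214 and 206 CPM untreated. It was 2.59-fold lower, the lowest fold change of all 45 members (log2 fold change -1.38, SE 0.24, adjusted p = 0.00169). The groups did not overlap, and the log2 fold change was -1.01 without untreated replicate 1. EIF4EBP2, its paralogue, was at 119, 112 and 118 CPM with Supinoxin and at 118, 134 and 121 CPM untreated. These groups overlap, and the log2 fold change of -0.10 did not pass (adjusted p = 0.522), although with length and GC trends removed it was -0.57 (adjusted p = 0.00104). The third inhibitor, EIF4EBP3, is listed at 0.

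Among cap-binding genes, EIF4E had a log2 fold change of 0.22 (adjusted p = 0.182) with higher treated values that did not overlap the untreated ones. It passed with length and GC trends removed (0.32, adjusted p = 0.0136). EIF4E2, a cap binder that represses translation, fell by 0.64 (adjusted p = 0.0116), a call lost without Supinoxin replicate 1 (adjusted p = 0.0522). EIF4H, a helicase cofactor, was level at 884 and 855 CPM (log2 fold change 0.05, adjusted p = 0.766). EIF4B, the other cofactor, had only 79, 73 and 67 counts with Supinoxin and 26, 21 and 57 untreated, with a log2 fold change of 0.87 that did not pass (adjusted p = 0.0849). It passed without untreated replicate 3 (1.502, adjusted p = 0.00267) and with no filter (adjusted p = 0.0424). Its processed pseudogene EIF4BP3 held 320 counts over the 6 libraries, so these counts are uncertain.

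**Figure D3:**
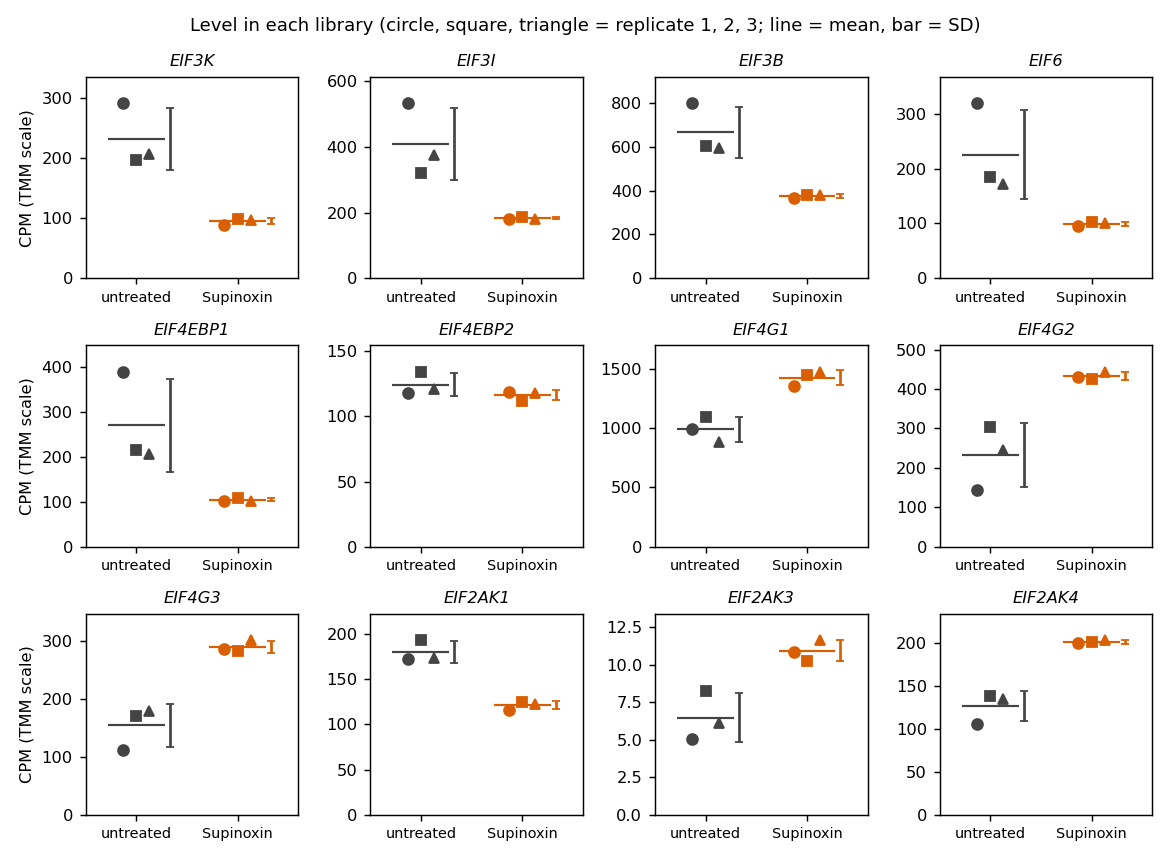
CPM in each library for members described one by one, with the treated and untreated groups side by side a line at each group mean and a bar for the SD (n = 3). Untreated replicate 1 is the highest library for EIF3K, EIF3I, EIF6 and EIF4EBP1 and the lowest for EIF4G2 and EIF4G3.

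Among the eIF2 kinases 2 rose, 1 fell and 1 did not pass, where 23.4% of all tested genes rose and 25.2% fell. EIF2AK4 (GCN2), which senses uncharged tRNA, was at 200.001, 201 and 204 CPM with Supinoxin and at 106, 139 and 136 CPM untreated. It was 1.59-fold higher with no overlap (log2 fold change 0.67, SE 0.14, adjusted p = 0.00409). EIF2AK3 (PERK), the kinase of the endoplasmic reticulum, was at 10.8, 10.3 and 11.6 CPM with Supinoxin and at 5.06, 8.23 and 6.13 CPM untreated. Again the groups were apart, at a 1.69-fold higher level (log2 fold change 0.75, SE 0.19, adjusted p = 0.0110). EIF2AK1 (HRI), activated by haem shortage and mitochondrial stress, was at 116, 125 and 123 CPM with Supinoxin and at 172, 194 and 174 CPM untreated. It was 1.48-fold lower with no overlap (log2 fold change -0.57, SE 0.12, adjusted p = 0.00455). EIF2AK2 (PKR), activated by double-stranded RNA, was at 85.8, 76.8 and 84.3 CPM with Supinoxin and at 79.1, 101 and 111 CPM untreated. These overlap, and the log2 fold change of -0.24 did not pass (adjusted p = 0.211). Without untreated replicate 1, its lowest untreated library, it was -0.36 and passed (adjusted p = 0.00516), and with length and GC trends removed it was -0.73 (adjusted p = 6.07e-05).

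Of the eIF2 and related genes, 1 of 5 tested fell and 0 rose (median log2 fold change -0.23). That is near the 25.2% of all tested genes that fell and is not read as a result about the group. EIF2D, a tRNA carrier of the eIF2-independent route, was at 50.1, 54.4 and 55.1 CPM with Supinoxin and at 71.8, 66.5 and 64.5 CPM untreated (log2 fold change -0.35, SE 0.12, adjusted p = 0.0351). The groups did not overlap, and the call was lost in 8 of these 13. EIF2S1, the alpha subunit that the kinases phosphorylate, was at 159, 162 and 156 CPM with Supinoxin and at 179, 191 and 216 CPM untreated. All treated values were lower, and the log2 fold change of -0.30 did not pass (adjusted p = 0.0763), though it passed without untreated replicate 1 (-0.35, adjusted p = 0.00388). EIF2S3, the gamma subunit that binds GTP and the tRNA, had a log2 fold change of -0.23 (adjusted p = 0.159). It passed without untreated replicate 1 (-0.24, adjusted p = 0.0451) and with length and GC trends removed (-0.31, adjusted p = 0.0185). EIF2S2, the beta subunit, and EIF2S3B, a copy of EIF2S3, were at 1.64 and 0.338 CPM with Supinoxin. EIF2S2 encodes a core subunit that dividing cells use, and why its counts are this low beside EIF2S1 and EIF2S3 was not tested.

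Of the eIF2B genes, which encode the exchange factor for eIF2, 3 of 5 fell and 0 rose (median log2 fold change -0.41). The shares of all tested genes were 25.2% and 23.4%. EIF2B3, of the catalytic part, was at 27.9, 31.9 and 28.4 CPM with Supinoxin and at 49.9, 44.5 and 52.7 CPM untreated. It was 1.67-fold lower with no overlap (log2 fold change -0.74, SE 0.13, adjusted p = 0.00168). EIF2B4, of the regulatory part, was at 28.4, 29.1 and 26.9 CPM with Supinoxin and at 44.1, 47.0 and 35.6 CPM untreated. The groups did not overlap (log2 fold change -0.59, SE 0.14, adjusted p = 0.00720). EIF2B2 fell by 0.41, a call lost in 6 of these 13, and 23.6% of its exonic bases overlap a gene on the other strand. EIF2B1 (-0.24, adjusted p = 0.121) and EIF2B5, the catalytic subunit itself (-0.11, adjusted p = 0.471), did not pass. Without untreated replicate 1 EIF2B1 passed (-0.20, adjusted p = 0.0419).

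In the eIF1 group 3 of 4 tested genes fell and 0 rose (median log2 fold change -0.41), beside 25.2% and 23.4% of all tested genes. EIF1, the gatekeeper of start-codon choice, was at 249, 262 and 251 CPM with Supinoxin and at 425, 293 and 332 CPM untreated (log2 fold change -0.46, SE 0.16, adjusted p = 0.0339). EIF1B, its paralogue, was at 27.8, 27.5 and 28.6 CPM with Supinoxin and at 48.9, 34.9 and 36.6 CPM untreated (log2 fold change -0.52, SE 0.15, adjusted p = 0.0185). In both genes the groups did not overlap and untreated replicate 1 was highest. Without it their log2 fold changes were -0.29 and -0.34. EIF1AX, the X-linked gene of eIF1A, fell by 0.35 (adjusted p = 0.0482). All 3 calls were lost when any 1 of the Supinoxin libraries was left out. EIF1AD was level (-0.02, adjusted p = 0.892).

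Of the eIF5 genes 3 fell, 1 rose and 1 did not pass, with a median of -0.62, where 25.2% of all tested genes fell and 23.4% rose. EIF5A, which carries the modified amino acid hypusine, was at 230.2, 229.7 and 224 CPM with Supinoxin and at 433, 397 and 303 CPM untreated. It was 1.66-fold lower (log2 fold change -0.73, SE 0.15, adjusted p = 0.00430), with no overlap. EIF5A2, its paralogue, was at 19.8, 16.7 and 18.3 CPM with Supinoxin and at 27.7, 25.2 and 31.5 CPM untreated. It was 1.54-fold lower (log2 fold change -0.62, SE 0.14, adjusted p = 0.00547), also with no overlap. EIF5AL1, a retrocopy whose reads cannot be told from those of EIF5A with certainty, was at 1.02, 1.27 and 0.938 CPM with Supinoxin and at 3.08, 1.98 and 1.37 CPM untreated. Its log2 fold change of -0.99 (SE 0.32, adjusted p = 0.0285) was -0.63 and did not pass without untreated replicate 1 (adjusted p = 0.0762). EIF5, the GTPase-activating protein of eIF2, rose by 0.43 (adjusted p = 0.0430), a call lost in 7 of these 13. EIF5B, the subunit-joining GTPase, was level (0.01, adjusted p = 0.976).

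Ratios between paralogues within a library do not depend on the scaling between libraries. With 3 libraries against 3, the two-sided exact permutation test cannot go below p = 0.1, and 5 ratios were computed. The log2 ratio of EIF4EBP2 to EIF4EBP1 was -1.05 ± 0.58 (SD, n = 3) untreated and was 1.21 higher with Supinoxin (exact permutation p = 0.1, adjusted 0.25). EIF2AK3 to EIF2AK1 was 1.34 higher (exact permutation p = 0.1, adjusted 0.25). EIF4G3 to EIF4G1 was 0.41 higher (exact permutation p = 0.2, adjusted 0.333), and 0.19 without untreated replicate 1 and 0.61 without untreated replicate 3. EIF5A2 to EIF5A and EIF1B to EIF1 moved by 0.09 and -0.06 (exact permutation p = 0.8 and 0.4, adjusted 0.8 and 0.5). In the first 2 pairs all treated libraries were above all untreated ones, and in the other 3 pairs they overlapped. Ratios between members of unlike length carry the length trend described next. EIF4EBP2 has 7491 bases and EIF4EBP1 827, and with length and GC trends removed their log2 fold changes were -0.57 and -0.80, much closer together. EIF5A2 has 5534 bases and EIF5A 1264, and with these trends removed they were at -0.93 and -0.38, further apart than before. EIF2AK3 and EIF2AK1 are near in length, 4536 and 4411 bases, and were then at 0.52 and -0.83.

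**Figure D4:**
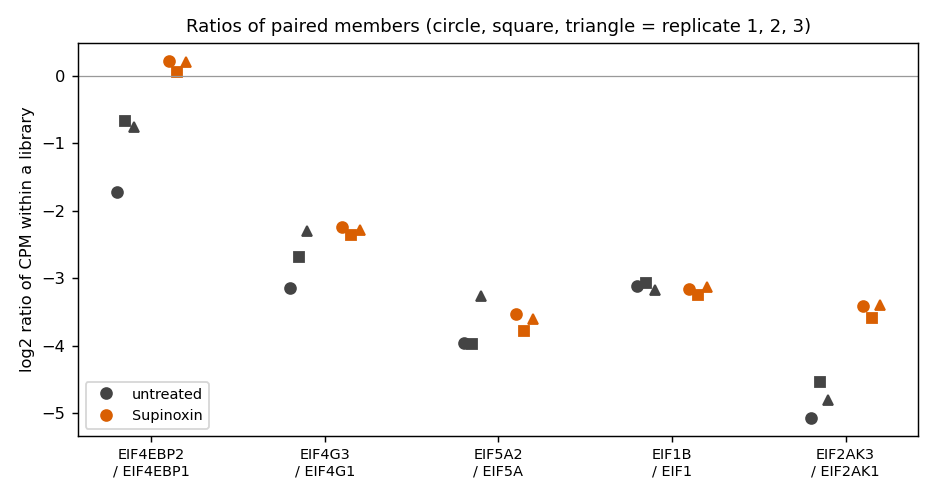
Log2 ratio of CPM between paralogues (y axis) in each of the 6 libraries, by pair. EIF4EBP2 to EIF4EBP1 and EIF2AK3 to EIF2AK1 are higher in all 3 Supinoxin libraries than in all 3 untreated ones, by 1.21 and 1.34 on average.

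The fold changes of the whole table moved with transcript length. Across 12547 protein-coding genes the rank correlation of log2 fold change with canonical length was 0.449, and across the 45 members it was 0.553; genes of 1 sample set share their libraries and are not independent. In 5 bins of equal size, from the shortest to the longest transcripts, the medians of all protein-coding genes were -0.59, -0.23, 0.01, 0.21 and 0.48. Those of the 9, 13, 7, 11 and 5 members in these bins were -0.94, -0.24, -0.23, -0.30 and -0.10. In the shortest bin lie EIF3K, EIF3G, EIF3I, EIF6 and EIF4EBP1 (772 to 1421 bases), and EIF4G3 and EIF2AK4 have 6397 and 5538 bases. With a fitted trend on length and GC content removed, 27 members were lower and 6 higher, beside 29.7% and 25.7% of all genes, and the median was -0.40. Under that setting EIF4EBP1 was at -0.80, EIF6 at -0.69, EIF3G at -0.44, EIF5A at -0.38, EIF4G3 at 0.55, EIF4G1 at 0.31 and EIF2AK4 at 0.31, all still past the threshold, and EIF1B, EIF2D and EIF5 were not. Other members stood lower under it, EIF3F at -1.01, EIF2B2 at -0.65 and EIF1AX at -0.54, and EIF4E2 was at -0.40.

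**Figure D5:**
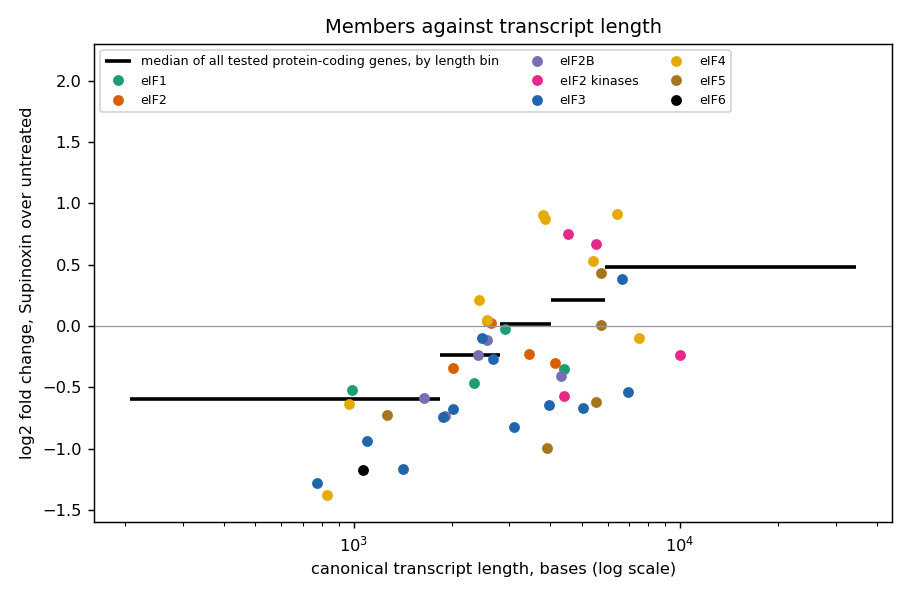
Log2 fold change (y axis) against canonical transcript length on a log axis for the 45 tested members, with the median of all protein-coding genes in each of 5 length bins. The all-gene medians climb from -0.59 to 0.48, and in the longest bin 4 of 5 members lie below that median.

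Proteins that act with these factors were counted in the same way. Each list here and below is short, and its counts stand beside 23.4% of all tested genes that rose and 25.2% that fell. Of 6 other initiation proteins 2 rose and 2 fell (median 0.17), which is not read as a result about them. MCTS1, which with DENR recycles tRNA and supports reinitiation, was at 25.9 ± 0.912 CPM (SD, n = 3) with Supinoxin and 54.8 ± 9.48 untreated (log2 fold change -1.08, adjusted p = 0.000657), while DENR was level (-0.01, adjusted p = 0.956). CDC123, an assembly factor of eIF2, fell by 0.56 (adjusted p = 0.00507). ABCE1, the recycling ATPase, and DHX29, a helicase of scanning, rose by 0.61 and 0.62, and both calls were lost when any 1 Supinoxin library was left out. Without untreated replicate 1, ABCE1 was at 0.40. DDX3X did not pass (0.35, adjusted p = 0.0652).

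Of 11 partners of the cap complex 2 rose and 3 fell (median -0.01). LARP1, the TOP mRNA-binding protein, was at 398 ± 2.10 CPM (SD, n = 3) with Supinoxin and 188 ± 33.9 untreated, 2.11-fold higher (adjusted p = 0.000712). GIGYF2, the partner of EIF4E2 in repression, was at 119.9 ± 1.62 and 59.4 ± 15.8 CPM, 2.02-fold higher (adjusted p = 0.00267). Of the 4 tested mTORC1 genes MTOR and RPTOR rose by 0.85 and 0.47, MLST8 had a log2 fold change of -0.99 (adjusted p = 0.0144; -0.53 without untreated replicate 1), and RHEB did not pass (-0.28, adjusted p = 0.0725). With length and GC trends removed these long transcripts stood lower, LARP1 at 0.61, GIGYF2 at 0.55, MTOR at 0.36 and RPTOR at 0.24, and MLST8 was at -0.41, each past the threshold. RPTOR lost its call without Supinoxin replicate 1 or 3 (adjusted p = 0.0619 and 0.0688).

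Around eIF2, 2 of 8 tested regulators rose and 1 fell (median -0.03). DNAJC3, an inhibitor of PKR and PERK, was at 83.7 ± 6.59 CPM (SD, n = 3) with Supinoxin and 50.2 ± 5.48 untreated (log2 fold change 0.74, adjusted p = 0.00203). GCN1, the ribosome-bound activator of GCN2, rose by 0.58 (adjusted p = 0.00667), but was at 0.17 and did not pass with length and GC trends removed (adjusted p = 0.102). Of ATF4, the transcription factor translated when eIF2 is phosphorylated, and its targets, 4 of 9 rose and 1 fell (median 0.50). DDIT4, an inhibitor of mTORC1, was at 334 ± 30.4 and 155 ± 17.3 CPM, and SESN2, another, at 32.9 ± 2.68 and 17.0 ± 3.12 (log2 fold changes 1.11 and 0.95, adjusted p = 0.000466 and 0.00158). ATF4 itself had a log2 fold change of 0.17 that did not pass (adjusted p = 0.277). It passed without untreated replicate 1 (0.22, adjusted p = 0.0315) and with length and GC trends removed (0.48, adjusted p = 0.00174), where 7 of the 9 genes were higher and 1 lower. Phosphorylation of eIF2 was not measured.

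Of 5 tested genes of eIF5A hypusination and of the spermidine supply it uses, 1 fell and 0 rose (median -0.27). SRM, spermidine synthase, was at 203 ± 11.4 CPM (SD, n = 3) with Supinoxin and 461 ± 214 untreated (log2 fold change -1.18, adjusted p = 0.00658; -0.72 without untreated replicate 1 and -0.58 with length and GC trends removed). DOHH, the hydroxylase of the second step, had a log2 fold change of -0.36 (adjusted p = 0.1999) and DHPS, the first enzyme, is listed at 0. ODC1, AMD1 and SMS did not pass (-0.27, -0.22 and 0.12).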

How the data were processed

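RNA was extracted with TRIzol and sequenced by Novogene, per the labels. The authors deposited raw counts for each Ensembl gene in each library. The submitters' processing notes name STAR, featureCounts, fastp, Trim Galore 0.4.4, edgeR, DESeq2 and GRCh38. The sources used here do not give library selection, strand setting or the handling of multi-mapping reads, so overlapping or antisense genes and near-identical copies could not be told apart. Columns named WT were taken as untreated, since the others name Supinoxin. Symbols, positions and lengths come from GENCODE 44 (60463 of 60605 identifiers matched).

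In R 4.3.3, edgeR 4.0.16 (filterByExpr, TMM, robust quasi-likelihood, two-sided) was fitted to 15947 genes with Benjamini-Hochberg adjustment, after a test on simulated data. The biological coefficient of variation was 17.0%. The 13 alternatives used DESeq2 1.42.0, other scalings and filters, the replicate block, a length and GC offset, and each library left out; 1 more was chosen after seeing the data. Members and lists were chosen with earlier results of these data known. Values per library are given for members past the threshold with an absolute log2 fold change of at least 0.8, the kinases, the 4E-BP genes and the smallest-p pair per factor.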

Additional observations from a re-analysis of the deposited data

How the results depend on the processing

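Of the 29 called members, 19 kept their call in all 13 alternatives. With total counts as the only scaling, the median of all genes was 0.14 and that of the members -0.20; 0 eIF1 and 0 eIF2 genes were lower and 1 eIF3 gene was higher. With the length and GC offset the median was -0.40, and 2 eIF2 genes and 2 kinases (EIF2AK1 and EIF2AK2) were lower and 0 eIF5 genes higher, as with this offset and untreated replicate 1 left out together (chosen after seeing the data). EIF5B turned to -0.29 and DOHH to 0.33 under both. DESeq2 gave 2 lower eIF2 and 1 higher eIF3 genes; no filter gave 0 lower eIF2 genes; upper quartile scaling gave 0 higher eIF5 genes. Deviations from the group means correlated at -0.133, -0.043 and -0.029 between same-numbered libraries. With 3 libraries per group these values cannot settle whether the libraries were paired. With the replicate block 6 members were higher and 18 lower, beside 3588 and 3650 of all 15947 genes. Under it 1 eIF1 and 0 eIF2 genes were lower and 0 eIF5 genes higher, and EIF4B passed (adjusted p = 0.0285). Leaving out 1 library at a time gave 15 to 27 lower members and medians of -0.36 to -0.27. The lowest count, 15, came without Supinoxin replicate 1, where 2789 of all 16337 genes were lower. The highest, 27, came without untreated replicate 1, beside 4477 of 16348. With all 6 libraries 23 members were lower, beside 4018 of 15947. Groups ranged over 0 to 3 lower eIF1, 0 to 3 lower eIF2 and 1 to 2 lower kinase genes. Further ranges were 0 to 1 higher eIF3, 1 to 2 lower eIF4 and 0 to 1 higher eIF5 genes. The EIF4G3 to EIF4G1 ratio ranged from 0.19 to 0.61. That of EIF5A2 to EIF5A ranged from -0.028 to 0.33, with -0.022 when untreated replicate 1 was left out. The length and GC offset was not applied to these ratios. The cause of these changes was not tested. EIF4B, EIF2S2, EIF2S3B and EIF5AL1 have few counts, which limits their precision; why EIF4B and EIF2S2 are this low was not tested.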
